A study of Rattus norvegicus with 17 samples.

Results

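The genes described here are 10 markers of hippocampal interneuron subtypes: Pvalb, Sst, Vip, Npy, Cck, Reln, Calb2, Cort, Lhx6 and Lamp5. They were chosen by name as 10 of the 34322 genes in the count table, by a rule that sets no threshold on their values, and all 10 passed the low-count filter. RNA was sequenced from the hippocampus of 17 Long-Evans rats aged 36 to 38 days. Dams of the ethanol group (ET, n = 5) drank a liquid diet containing 6.7% ethanol, which supplied 36% of calories, from gestational day 0 to 20, dams of the pair-fed group (PF, n = 6) received matched amounts of the liquid diet without ethanol, and dams of the ad libitum group (AD, n = 6) ate chow freely. The rats were not exposed to ethanol after gestational day 20, and all were reared by dams on chow. Each diet group was a single litter, so the effect of diet and the effect of litter cannot be told apart, and the p-values below measure only the spread between littermates. Both sexes were sampled, and the left hippocampus was used except in 4 libraries.

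Interneurons are the local inhibitory neurons of the hippocampus. They release GABA onto the excitatory principal cells of CA1, CA3 and the dentate gyrus, and their subtypes are told apart by the calcium-binding proteins and neuropeptides they make. Parvalbumin cells inhibit the soma and axon initial segment and somatostatin cells the distal dendrites, while cells with vasoactive intestinal peptide mostly inhibit other interneurons. Parvalbumin and somatostatin cells arise from the medial ganglionic eminence, and most cells with VIP, cholecystokinin or calretinin from the caudal ganglionic eminence. In whole tissue, fewer cells of a subtype and less RNA per cell cannot be told apart.

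The libraries held between 10853947 and 17498392 counted fragments. The study left out 3 libraries from its final analysis, ET replicate 2, PF animal 11f6 and AD replicate 4. Their 10 choroid plexus markers summed to 7378, 8434 and 9368 counts per 1000000 fragments (CPM), against 7.74 to 1230 CPM in the 14 libraries kept. Unless stated, the tests below use these 14 libraries (4 ET, 5 PF, 5 AD), and the 3 others are described where they lay outside the range of the 14. In 2 of the 17 libraries, AD replicates 1 and 2, sex-linked genes did not match the labelled sex, so the sexes were compared in ET and PF alone. The markers of hippocampal principal cells were detected in every library, with a summed level of 893 to 1859 CPM in the 14 libraries.

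Short sequences from the promoter windows are shown for the members that varied together from library to library (described further on) and whose promoter window holds the core letters bound by the cAMP-responsive factor CREB. They come from RefSeq on the assembly GRCr8, in which 8 of the 10 members had an entry (Cck and Calb2 had none), and each window spans 250 bases before to 50 bases after the annotated start. Capitals mark TGACGTCA, TGACG or its reverse complement CGTCA, and TATAAA. TGACGTCA contains TGACG and is its own reverse complement, so a window with the long motif also holds the short motif. Counted from the annotated start, TGACG or CGTCA first begins at position 3 in Sst, -97 in Vip, -105 in Cort and -241 in Pvalb. The Sst match thus lies after the annotated start and the Pvalb match far before it. Where transcription begins in these libraries was not measured.
Sst, plus strand, chr11:90461546-90461575, from the annotated start: gcTGACGTCAgagagagagtttaaaaaggg
Vip, plus strand, chr1:44470360-44470479: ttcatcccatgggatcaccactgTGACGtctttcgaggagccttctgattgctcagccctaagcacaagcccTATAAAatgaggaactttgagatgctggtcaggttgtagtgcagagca
Cort, minus strand, chr5:164845125-164845244: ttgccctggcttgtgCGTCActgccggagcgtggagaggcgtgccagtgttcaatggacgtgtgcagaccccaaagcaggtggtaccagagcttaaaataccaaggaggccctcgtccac
Pvalb, minus strand, chr7:111666420-111666539: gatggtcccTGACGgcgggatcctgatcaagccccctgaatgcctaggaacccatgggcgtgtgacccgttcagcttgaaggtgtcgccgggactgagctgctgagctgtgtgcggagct

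Searched on both strands, TGACGTCA was found in Sst alone of the 8 members and in 1.83% of 33469 rat promoter windows. TGACG was found in 4 of the 8 members, Sst, Vip, Cort and Pvalb, and in 21.2% of all windows. TATAAA was found in 1 of the 8, Vip, and in 14.2% of all windows. A match describes the letters of the window, and binding was not measured.

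Levels are given as CPM after TMM scaling and are compared between libraries of 1 gene, not between genes, since transcript lengths were not used. Among the neuropeptide genes, Sst, which encodes somatostatin, was measured at 68.7 ± 31.9 CPM in ET (SD, n = 4), 68.7 ± 13.4 CPM in PF (SD, n = 5) and 75.9 ± 15.3 CPM in AD (SD, n = 5). The group means lay closer together than the libraries of any 1 diet, and the ET libraries alone spanned 33.9 to 109.9 CPM. Cck, the gene for cholecystokinin, which marks a class of basket cells and is also made by principal cells, was at 121 ± 40.4 CPM in ET, 119.8 ± 15.3 CPM in PF and 126 ± 30.3 CPM in AD. Vip, whose peptide marks interneurons that inhibit other interneurons, was at 26.0 ± 9.76, 26.2 ± 4.30 and 27.9 ± 4.28 CPM in the same order. For these 3 genes the libraries of the diets overlapped over most of their range.

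Npy encodes neuropeptide Y, an inhibitory peptide of neurogliaform, ivy and many somatostatin cells. Its level was 41.7, 17.2, 28.3 and 22.1 CPM in ET replicates 1, 3, 4 and 5. In PF it was 22.1, 21.5, 20.7 and 25.8 CPM in replicates 1, 2, 3 and 6 and 24.6 CPM in animal 11f5. The AD libraries 1, 2, 3, 5 and 6 had 27.7, 24.5, 24.8, 28.3 and 39.2 CPM. The PF libraries were the most alike and sat at the low side of AD, with an overlap between 24.5 and 25.8 CPM. Cort, the gene for cortistatin, a relative of somatostatin that binds the same receptors, was the least counted member, with 17.7 to 105 averaged counts. Its level was 7.89, 1.23, 2.10 and 3.91 CPM in the 4 ET libraries, 1.40, 1.93, 1.39, 3.07 and 3.05 CPM in the PF libraries (replicates 1, 2 and 3, animal 11f5 and replicate 6), and 4.01, 4.02, 2.03, 2.98 and 7.94 CPM in the AD libraries. ET replicate 1 and AD replicate 6 stood highest, and every diet overlapped with the others.

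**Figure D1:**
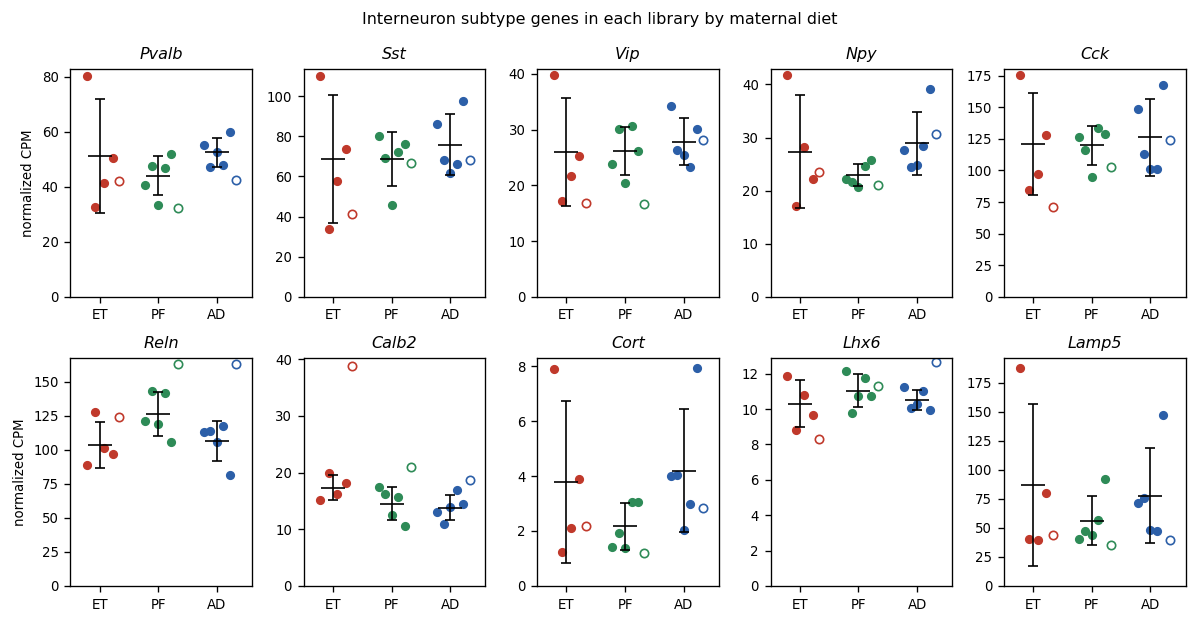
Normalized CPM of the 10 members in each library by maternal diet (ET red, PF green, AD blue). Filled points are the 14 libraries of the final analysis, open points the 3 left out, and black bars their mean ± SD over the filled points; 1 ET library and 1 AD library stand highest for Lamp5, at 188 and 148 CPM, and the diets overlap in every panel.

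Of the calcium-binding proteins, Pvalb, which encodes parvalbumin, was measured at 80.3, 32.6, 41.4 and 50.3 CPM in the ET libraries. The PF libraries had 40.6, 47.4, 33.4, 46.9 and 51.8 CPM and the AD libraries 55.2, 47.0, 52.4, 48.0 and 59.7 CPM. The highest and the lowest Pvalb level of the 14 libraries were both in ET. Calb2, the gene for calretinin, was at 15.1, 20.0, 16.1 and 18.1 CPM in ET, at 17.5, 16.2, 12.5, 15.7 and 10.5 CPM in PF, and at 13.04, 10.8, 13.9, 16.9 and 14.4 CPM in AD. The ET libraries lay within or above the range of both controls. Of the libraries left out, ET replicate 2 had 38.8 CPM of Calb2, above the 16 others, whose highest value was 21.0 CPM in PF animal 11f6.

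Reln encodes reelin, an extracellular protein made by Cajal-Retzius cells and by several interneuron types. It was at 88.6, 128, 102 and 97.3 CPM in ET, at 121, 144, 119, 142 and 106 CPM in PF and at 113, 114, 106, 118 and 81.7 CPM in AD. The PF libraries reached the highest levels, and libraries of ET and AD overlapped with the lower PF libraries. The libraries left out had 124 CPM in ET, 163 CPM in PF and 163 CPM in AD. Lamp5, which encodes a lysosome-associated membrane protein and marks neurogliaform cells, was at 188, 40.2, 39.7 and 80.2 CPM in ET, at 40.1, 47.2, 44.3, 56.9 and 92.5 CPM in PF and at 71.2, 75.5, 47.9, 47.0 and 148 CPM in AD. It had the widest spread after Cort, with a coefficient of variation of 60.9% over the 14 libraries against 64.4% for Cort. Lhx6, a transcription factor of cells from the medial ganglionic eminence, had the narrowest, 8.86%, with all 14 libraries between 8.83 and 12.2 CPM. Of the libraries left out, PF animal 11f6 lay below the range of the 14 for Pvalb (32.3 CPM), Vip (16.6 CPM), Cort (1.19 CPM) and Lamp5 (35.4 CPM). ET replicate 2 lay below it for Vip (16.9 CPM), Cck (71.4 CPM) and Lhx6 (8.32 CPM), and AD replicate 4 was at 12.7 CPM of Lhx6, above it, and at 39.5 CPM of Lamp5, below it. Sst and Npy of all 3 lay within the range of the 14.

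Offspring of ethanol-fed and pair-fed dams were compared first, since both groups of dams received the liquid diet in matched amounts. A gene was called at an adjusted p-value below 0.05 by edgeR's quasi-likelihood test with Benjamini-Hochberg adjustment over all genes tested. None of the 10 members was called, against 4.13% of the 16068 genes tested, and none passed the stricter thresholds of the study, an adjusted p under 0.01 and a log2 fold change beyond 1.5 in either direction, which 2.17% of genes did. DESeq2 also called 0 members, and 1 member, Reln, had an unadjusted p below 0.05, as did 11.9% of all genes. With 1 library left out this count was 3 without ET replicate 3, 2 without PF replicate 1, 1 without PF replicate 3 or 6, and 0 without each of the 5 others. Without ET replicate 3, 989 genes were higher and 1341 lower in ET at that threshold, of 16226 tested. With all 9 libraries Reln was measured 0.28 lower in ET on the log2 scale (95% interval -0.55 to -0.02, adjusted p = 0.36 by edgeR). The largest differences were those of Cort, 0.79 (95% interval -0.29 to 1.88, adjusted p = 0.64), and Lamp5, 0.64 (95% interval -0.37 to 1.64, adjusted p = 0.72). Their intervals allow a level in ET from somewhat below that in PF to far above it. Without ET replicate 1 these values became 0.14 for Cort and -0.08 for Lamp5.

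The other 7 members differed between ET and PF by -0.10 to 0.26 on the log2 scale. Sst differed by 0.0022 with a 95% interval of -0.63 to 0.63, and Cck by 0.02 with an interval of -0.41 to 0.45. The intervals were narrower for Lhx6, -0.33 to 0.13 around a value of -0.10, than for any peptide gene. The median over the members was 0.12, beside 0.0053 over all genes tested, and 3 of 10 members were lower in ET, as were 48.1% of all genes. Without ET replicate 1 the median was -0.14 and 8 of 10 members were lower in ET, and 5 of 10 were lower without ET replicate 5 or without PF replicate 3. The direction of the members as a group turned with 1 library. No member separated ET from PF without overlap, which 6.78% of the genes tested did.

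**Figure D2:**
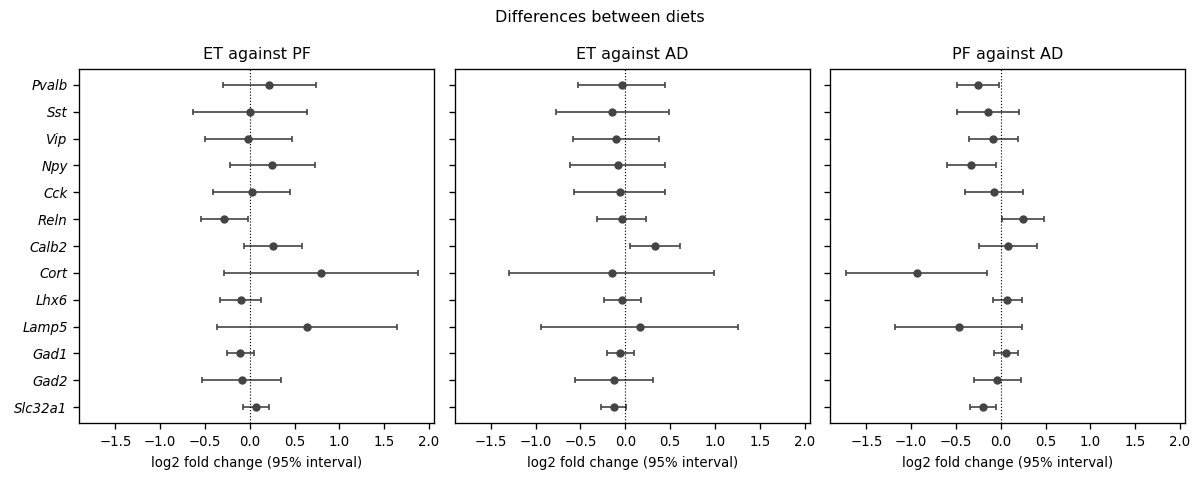
Log2 fold change of the 10 members and of Gad1, Gad2 and Slc32a1 in the 3 diet comparisons, with points for the edgeR estimate and bars for its 95% interval. The dotted line marks no difference; bars are longest for Cort and Lamp5 and shortest for Gad1, Slc32a1 and Lhx6, and no gene shown was called.

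Between ET and AD, 0 of 10 members were called by edgeR or by DESeq2, and 0.0127% of 15749 genes were called by edgeR at either threshold. Calb2 alone had an unadjusted p below 0.05, which 2.74% of genes had. The count of members was 3 without ET replicate 1, 0 without ET replicate 3 or 5 or AD replicate 1 or 2, and 1 without each of the others. Without ET replicate 1, 413 genes were higher and 371 lower in ET at that threshold, of 15878 tested. Over all 9 libraries Calb2 was at 17.3 ± 2.16 CPM in ET (SD, n = 4) and 13.8 ± 2.20 CPM in AD (SD, n = 5), a log2 difference of 0.33 (95% interval 0.05 to 0.61, adjusted p = 1.00 by edgeR). The other 9 members differed by -0.15 to 0.16, and 8 of the 10 were lower in ET, as were 48.6% of all genes. The median of the members was -0.05 beside 0.0028 over all genes. Single libraries set this count and this median, which were 1 and 0.08 without ET replicate 3, 4 and 0.03 without AD replicate 6, and 5 and 0.0050 without ET replicate 4. Without ET replicate 1 the count was 8 and the median -0.35. None of the members separated the diets without overlap, beside 1.18% of all genes.

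PF and AD differed in the type and amount of the maternal diet without ethanol in either. By edgeR 0 of 10 members were called, against 5.17% of 15960 genes, and DESeq2 called 0 as well. The study's stricter thresholds also gave 0 members and 2.05% of all genes, and 7 of 10 members were lower in PF beside 50.9% of all genes. An unadjusted p below 0.05 was found for 4 members, Pvalb, Npy, Cort and Reln, and for 16.4% of all genes. Cort was measured 0.94 lower in PF on the log2 scale (95% interval -1.72 to -0.16, adjusted p = 0.20 by edgeR), from means of 2.17 ± 0.843 CPM in PF and 4.20 ± 2.25 CPM in AD (SD, n = 5 each). Without AD replicate 6 the log2 difference of Cort was -0.60 and that of Npy -0.19. The number of members with an unadjusted p below 0.05 was 1 without AD replicate 6, without PF replicate 3 or in 1 fit of all 3 diets, 2 without PF replicate 1, PF replicate 2 or AD replicate 3, and 3 to 5 without each of the others. The 5 were found without PF replicate 6, where 1824 genes were higher and 1440 lower in PF at that threshold, of 16064 tested. With all 10 libraries Npy was 0.33 lower in PF (95% interval -0.60 to -0.05, adjusted p = 0.20), and Pvalb 0.25 lower (95% interval -0.49 to -0.02, adjusted p = 0.27). Reln was 0.25 higher in PF (95% interval 0.02 to 0.48, adjusted p = 0.26). The 4 intervals exclude 0, but none of the 4 passed the adjustment over all genes. No member separated PF from AD without overlap, beside 6.57% of all genes. Each pair of the 3 diet comparisons shares the libraries of 1 diet.

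The members were also measured against genes that every GABAergic neuron uses. Gad1 and Gad2 encode the enzymes that make GABA and Slc32a1 the transporter that loads it into vesicles. Between ET and PF they differed by -0.11, -0.09 and 0.07 on the log2 scale, between ET and AD by -0.05, -0.13 and -0.13, and between PF and AD by 0.06, -0.04 and -0.20, and none was called in any of these. Slc32a1 had an unadjusted p below 0.05 between PF and AD (95% interval -0.34 to -0.05, adjusted p = 0.14 by edgeR). When libraries were scaled to the summed counts of these 3 genes in place of TMM, 0 members were called in each comparison, beside 3.45%, 0.0127% and 4.29% of all genes. At an unadjusted p below 0.05 there were 2 members in ET against PF (Reln and Calb2), 1 in ET against AD (Calb2) and 2 in PF against AD (Reln and Cort), beside 11.6%, 4.15% and 12.4% of all genes. With 1 library left out these counts ran from 0 (without ET replicate 5) to 6 (without ET replicate 3) in ET against PF and from 1 (without AD replicate 6 or PF replicate 1, 2 or 3) to 5 (without PF replicate 6) in PF against AD, and stayed at 1 in ET against AD. Beside the 6, 2849 genes were higher and 744 lower in ET at that threshold, of 16226 tested. Beside the 5, 1436 were higher and 1339 lower in PF, of 16064 tested. This scaling moved the median of all genes by 0.08 between ET and PF and by 0.09 between ET and AD.

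Sex and hemisphere were compared with diet in the model. Males and females of ET and PF differed by -0.15 to 0.17 on the log2 scale in the 10 members. None was called by edgeR or DESeq2 and none had an unadjusted p below 0.05, beside 0.0425% of genes called and 1.9% at the unadjusted threshold. Without ET replicate 1, 5 members had an unadjusted p below 0.05, Lamp5, Npy, Cort, Pvalb and Cck, all higher in males by 0.28 to 1.05 on the log2 scale (lowest adjusted p = 0.55 by edgeR), and the median of the members was 0.31 in place of 0.01. In that fit 790 of 16840 genes were higher and 726 lower in males at the same threshold. The 3 right and 11 left hippocampi likewise gave 0 members called by either tool and 0 at an unadjusted p below 0.05, beside 0% of genes called by edgeR and 1.79% at the unadjusted threshold. Cort had the largest difference between the sides, -0.46 (95% interval -1.68 to 0.77). In the test of whether the ET and PF difference depended on sex, 0 members were called by edgeR and 0 had an unadjusted p below 0.05, beside 0% and 1.4% of all genes. The interaction of Lamp5 was -1.70 (95% interval -3.61 to 0.21, adjusted p = 1.00), and with 2 ET libraries per sex the intervals were wide for all members.

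Libraries of the same diet differed widely in the members. ET replicate 1 and AD replicate 6 were set apart after the values were seen, as the libraries with the most Lamp5. The choice fixed that Lamp5 was above the other 12 libraries of the final analysis in both. Of the 9 other members, 6 were above the highest value of the 12 in ET replicate 1 and 5 in AD replicate 6, while 19.8% and 15.5% of all 16272 genes were. For 5 of the 9, Pvalb, Sst, Npy, Cck and Cort, both libraries were above the other 12, beside 7.65% of all genes. Lamp5 was 3.95 and 3.10 times the median of the other 12, Cort 3.11 and 3.13 times, and Npy 1.70 and 1.60 times. Sst was 1.60 and 1.42 times that median, and Cck 1.53 and 1.47 times.

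Reln went the other way and was below all 12 others in both libraries, at 0.765 and 0.705 times their median. Vip exceeded the other 12 in ET replicate 1 alone, while Calb2 and Lhx6 lay within their range in both libraries. Genes shared by GABAergic neurons did not follow the peptides. Gad1 and Slc32a1 lay within the range of the other 12 in both libraries, at 0.948 and 0.869 times the median for Gad1 and 1.04 and 1.10 times for Slc32a1. Gad2 was below all 12, at 0.574 and 0.753 times. The libraries highest in neuropeptide RNA were not high in RNA of the GABA-making enzymes.

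**Figure D3:**
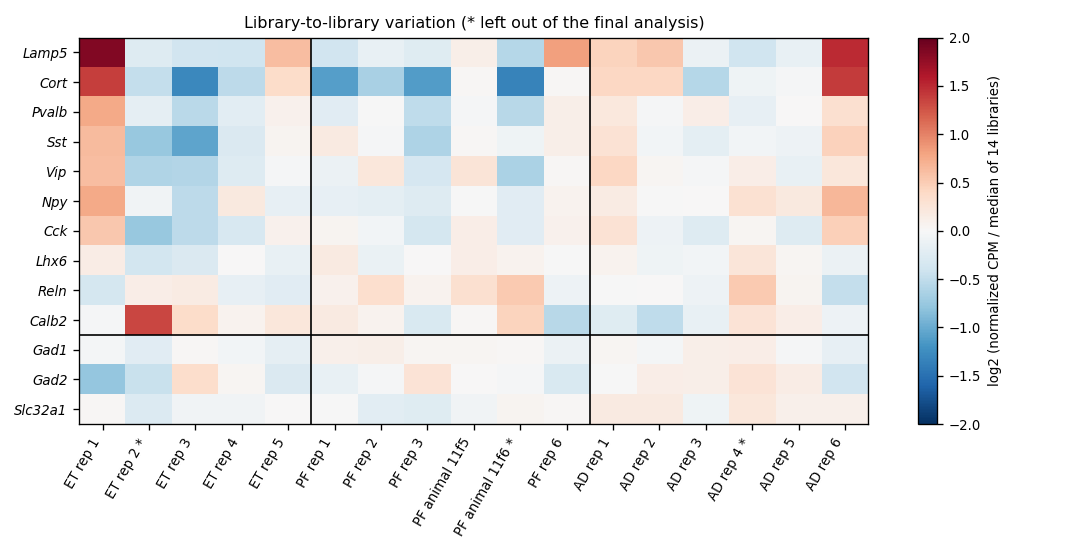
Log2 ratio of each library's normalized CPM to the median of the 14 libraries, for the 10 members (above the line) and 3 GABAergic genes (below it), with red for higher and blue for lower. Columns are libraries grouped by diet, and an asterisk marks those left out; ET replicate 1 and AD replicate 6 are red from Lamp5 to Cck and blue for Reln and Gad2, and ET replicate 3 is blue for the peptide genes.

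Markers of principal cells and of neighbouring regions were measured in these libraries as well. The 12 principal cell markers of the hippocampus summed to 893 CPM in ET replicate 1 and 1105 CPM in AD replicate 6, both below the 12 other libraries. Of the 11 tested, 7 and 6 were below all 12 others, beside 22.4% and 19.2% of all genes, among them Cabp7, at 156 and 221 CPM beside a median of 309 CPM. Wfs1, the most abundant of the list, was at 214 and 240 CPM beside a median of 346 CPM, within the range of the others. The 10 neocortical markers summed to 475 CPM in ET replicate 1, the highest of the 14, and to 357 CPM in AD replicate 6, in the middle of the 14, where the range over the 14 was 154 to 475 CPM. Of the 9 tested, 4 were above all 12 others in ET replicate 1 and 2 in AD replicate 6, beside 19.8% and 15.5% of all genes. Tbr1, a transcription factor of cortical excitatory neurons, was at 111 and 79.2 CPM in the same libraries, beside a median of 73.7 CPM in the other 12 and a highest value of 87.4 CPM. The abundant Tshz2 was at 175 and 103 CPM, both within the range of the other 12, whose median was 110.1 CPM. The 8 striatal markers summed to 175 and 206 CPM, both above the other 12 libraries, whose range was 90.0 to 152 CPM, with Ppp1r1b at 109.7 and 116 CPM. Of the 7 tested, 1 was above all 12 others in ET replicate 1 and 4 in AD replicate 6. The part of these markers in the members' levels was not tested.

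Across the 14 libraries several pairs of Sst, Vip, Cck, Cort, Pvalb and Lamp5 varied together. Deviations of log2 CPM from the diet mean were correlated for all 45 pairs of members, with permutation of libraries within diets and Benjamini-Hochberg adjustment over the 45. In 14 pairs the adjusted permutation p was below 0.05 for both Pearson's r and Spearman's rho, and all 14 were positive. Of all 45 pairs 35.6% had an r of at least 0.8, beside 1.38% of all pairs of the 16272 genes tested, and the median r was 0.58 beside 0.0031. Cort and Lamp5 had r = 0.93 (rho = 0.89, adjusted permutation p = 0.0018 and 0.0055). Sst and Cck also had r = 0.93 (rho = 0.93, adjusted permutation p = 0.0018 and 0.0055), and Pvalb and Vip r = 0.92 (rho = 0.85, adjusted permutation p = 0.0043 and 0.0091). When the 2 libraries farthest from the median of the first gene were left out, r was 0.91, 0.91 and 0.79 for these pairs. No pair with Npy, Reln, Calb2 or Lhx6 was among the 14. Without ET replicate 1 and AD replicate 6, 0 of 45 pairs passed both adjusted tests, although r remained 0.89 for Sst and Cck (rho = 0.89, adjusted permutation p = 0.038 and 0.053) and 0.85 for Cort and Lamp5 (rho = 0.69, adjusted permutation p = 0.038 and 0.19). The median r over the pairs was 0.58 with these libraries and 0.40 without them. Leaving them out also lowers the number of libraries from 14 to 12.

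The members were next set against the summed levels of 4 marker lists in the same way, over 40 relations chosen after the values were seen. Pvalb, Sst, Vip and Cck had negative relations to the hippocampal principal cell markers, with r = -0.85, -0.84, -0.84 and -0.88 (rho = -0.78, -0.80, -0.85 and -0.83, adjusted permutation p between 0.019 and 0.040). Without the 2 farthest libraries r was -0.69, -0.74, -0.67 and -0.785. Vip had a positive relation to the neocortical markers, with r = 0.80 (rho = 0.83, adjusted permutation p = 0.021 and 0.019), and r = 0.81 without the 2 farthest libraries. Reln had a positive relation to the thalamic and habenular markers, with r = 0.77 (rho = 0.85, adjusted permutation p = 0.025 and 0.019), and r = 0.74 without the 2 farthest. No other relation passed both adjusted tests, including all those to the choroid plexus markers. That of Calb2 to the thalamic and habenular markers had r = 0.56 (rho = 0.64, adjusted permutation p = 0.097 and 0.096). Over the 12 libraries without ET replicate 1 and AD replicate 6 none of the 40 passed. For the principal cell markers r was then -0.67, -0.69, -0.76 and -0.69 for Pvalb, Sst, Vip and Cck (rho = -0.57, -0.61, -0.71 and -0.69, adjusted permutation p between 0.16 and 0.47). For the neocortical markers r was 0.80 for Vip (rho = 0.78, adjusted permutation p = 0.19 and 0.16) and for the thalamic and habenular markers 0.80 for Reln (rho = 0.84, adjusted permutation p = 0.19 and 0.16). All genes of a library share its total in CPM, which the points of these relations have in common.

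**Figure D4:**
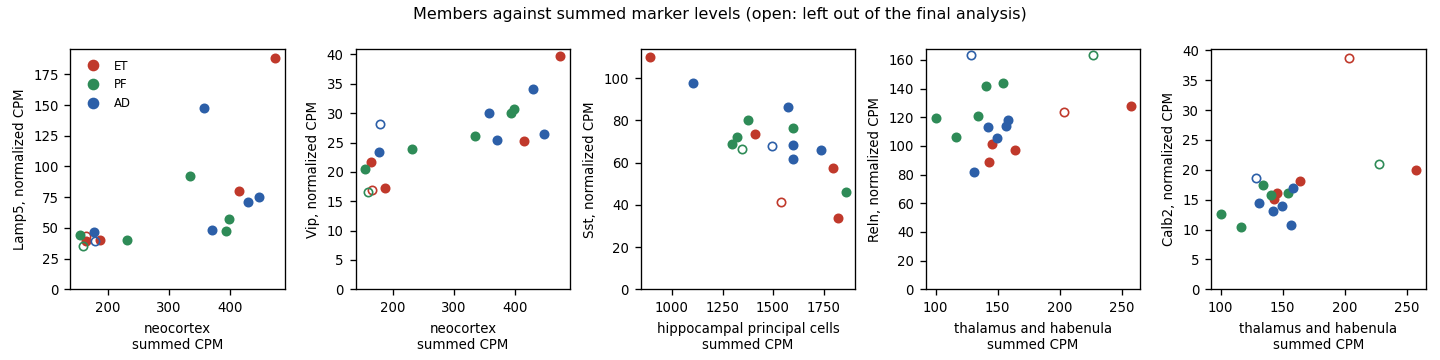
Normalized CPM of Lamp5, Vip, Sst, Reln and Calb2 against the summed CPM of neocortical, hippocampal principal cell or thalamic and habenular markers in each library (ET red, PF green, AD blue, open if left out of the final analysis). Vip is higher where the neocortical sum is higher, and Sst is highest where the principal cell sum is lowest. The ET library with 38.8 CPM of Calb2 lies at a thalamic sum of 203 CPM. ET replicate 3 and PF animal 11f6 have larger thalamic sums, 257 and 227 CPM, with 20.0 and 21.0 CPM of Calb2.

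Tnnt1, a troponin gene expressed in thalamus, was the only gene of the marker lists called in a TMM-scaled diet comparison. It was measured at 2.09 ± 0.737 CPM in ET (SD, n = 4), 0.685 ± 0.243 CPM in PF and 2.44 ± 0.708 CPM in AD (SD, n = 5 each), with a log2 fold change of 1.60 between ET and PF (SE 0.30, adjusted p = 0.0094 by edgeR) and -1.80 between PF and AD (SE 0.26, adjusted p = 0.00074). It was the 1 of 9 thalamic and habenular genes tested that was called in these comparisons. Between ET and PF 4 of the 9 had an unadjusted p below 0.05, beside 11.9% of all genes, 8 of 9 were higher in ET, and their median log2 difference was 0.61 beside 0.0053 over all genes. Between PF and AD 3 of 9 did, beside 16.4%, 8 of 9 were lower in PF, and the median was -0.32. Between ET and AD 0 of 10 did, and the median was 0.22. When libraries were scaled to the GABAergic genes, 2 of the 9 were called in ET against PF, beside 3.45% of all genes. They were Tnnt1 (1.65, SE 0.28, adjusted p = 0.0034 by edgeR) and Tcf7l2 (0.70, SE 0.15, adjusted p = 0.021). An unadjusted p below 0.05 was found for 6 of 9 in that fit, beside 11.6% of all genes. The summed level of that list was 143 to 257 CPM in ET, 99.9 to 154 CPM in PF and 131 to 158 CPM in AD. The top of the ET range was ET replicate 3 alone, and ET replicates 1, 4 and 5 had 143, 146 and 164 CPM. The abundant Ntng1 and Slc17a6 were not called. The part of these genes in the values of Reln and Calb2 between diets was not tested. Calretinin and reelin are also made outside the hippocampus, and Calb2 is strongly expressed in parts of the thalamus.

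The receptors through which the members' products act were described by the same tests. Of 15 genes, 13 passed the low-count filter, and Sstr5 and Cckar did not, with under 3 counts in every library for Sstr5. None of the 13 was called in any diet comparison by edgeR. The somatostatin and cortistatin receptors Sstr1 to Sstr4 averaged 39.6, 14.3, 34.4 and 18.1 CPM over the 14 libraries. At an unadjusted p below 0.05 there was 1 receptor in ET against PF, the VIP receptor Vipr2, at 0.33 on the log2 scale (adjusted p = 0.36). In PF against AD there were 3, Npy2r at 0.98, Npy5r at 0.25 and Vipr2 at -0.26 (adjusted p = 0.18, 0.28 and 0.27), and in ET against AD there were 0. The same threshold was passed by 11.9%, 16.4% and 2.74% of all genes in these comparisons, so 1, 3 and 0 of 13 lay near the background. The reelin receptors Lrp8 and Vldlr and the adaptor Dab1 varied little, with 82.7 to 108, 107 to 138 and 83.6 to 117 CPM. The receptor genes were named after their values were seen.

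Of 32 other interneuron genes, 31 were tested and 0 were called in ET against PF, ET against AD or PF against AD. At an unadjusted p below 0.05 there were 2, 0 and 5 of the 31, at or below the 11.9%, 2.74% and 16.4% of all genes. Their median log2 difference was -0.05, -0.07 and -0.02, beside 0.0053, 0.0028 and -0.0029 over all genes. Htr3a, the serotonin receptor of cells from the caudal ganglionic eminence, was 0.62 lower in ET than in PF (95% interval -1.07 to -0.17, adjusted p = 0.18), and Nr2f2 was 0.77 lower (95% interval -1.44 to -0.09, adjusted p = 0.33). Calb1, the gene for calbindin, was 0.45 higher in PF than in AD (95% interval 0.18 to 0.71, adjusted p = 0.060), and was called there when libraries were scaled to the GABAergic genes (0.45, adjusted p = 0.020). Penk, which encodes enkephalin, was at 64.6 and 79.1 CPM in ET replicate 1 and AD replicate 6, beside a highest value of 37.8 CPM in the other 12. Of the 31 genes tested, 4 were above the other 12 in both of these libraries and 8 were below, beside 7.65% and 11.4% of all genes. The summed level of the 32 genes was 1174 and 1183 CPM in these libraries, the lowest of the 14, where the members' sum was the highest. Genes of this list other than those called were named after their values were seen.

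Cajal-Retzius cells are a further source of Reln. Of the 7 markers listed, 6 are in the table and 3 were tested, Lhx5 was under 3 counts in every library, and none was called in a diet comparison. Reln and Ndnf, at means of 113 and 33.1 CPM over the 14 libraries, are also made by interneurons and held nearly all of the list's summed level. Lhx1, Ebf3 and Nhlh2 averaged 0.178, 0.595 and 1.62 CPM, so the sum is not a measure of these cells apart from Reln.

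For each member the gene with the most similar pattern over the 14 libraries was sought among 16262 others, by Pearson's r of deviations of log2 CPM from the diet mean. Lamp5 was most like Kcns1, a potassium channel subunit gene (r = 0.98), Sst most like Tm2d3 (r = 0.98) and Cck most like Abcf1 (r = 0.97). Pvalb was nearest to Bak1 (r = 0.97), Cort to Lpcat4 (r = 0.96), Npy to Fam174c (r = 0.95), Vip to Tmem178a (r = 0.95) and Reln to Aff2 (r = 0.95). For Calb2 and Lhx6 the nearest were Fchsd1 and Gemin6, both with r = 0.92. These values describe the highest of many, and the libraries ET replicate 1 and AD replicate 6 enter all of them.

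Genes that overlap another gene can share its fragments. In the GRCr8 gene list Reln overlaps 3 other genes and Lhx6 overlaps 1, and the other 8 members overlap none. The library kit keeps strand, but the strand setting of the counting is not given in the sources used here, so fragments of Reln and Lhx6 cannot be separated from those of overlapping genes with certainty.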

How the data were processed

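Hippocampal RNA of 17 rats was sequenced from stranded mRNA libraries. The authors trimmed reads with fastp, mapped them to mRatBN7.2 with Bowtie2 2.4.2 and counted fragments on exons with featureCounts 2.0.1. Expected counts were deposited: the authors averaged each gene's fragment count over 3 technical replicates without normalizing, and all values were multiples of 1/3. Columns were matched to samples by the diet, sex, hemisphere and animal number in the study's column names. Where a single sample had that diet, sex and hemisphere, these gave the match without the animal number. For 2 PF males the replicate number is not given, and the animal name is used.

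Counts were rounded, filtered with filterByExpr, scaled by TMM and tested in edgeR 4.0.16 (quasi-likelihood F test, R 4.3.3) on the 14 libraries of the study's final analysis, with Benjamini-Hochberg adjustment over all genes. CPM were scaled by TMM over 17 libraries. Intervals are 95%, and correlations used 100000 permutations. DESeq2 1.42.0 was an alternative, with the others in the closing section. Both tools were tested on simulated data. Fragments carried no molecular identifiers, and depth was 10853947 to 17498392 per library.

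The members and the lists were chosen with earlier results of these data known. Genes named are the 10 members, any list gene called in a diet comparison, Gad1, Gad2 and Slc32a1, the 2 most abundant genes and any gene at 0 of the lists of other cell types, and for each member the most similar gene. A gene that this rule names is not reported here. Other genes named were chosen after their values were seen. Correlations were computed with numpy 2.4.6 and pandas 2.3.3 in Python 3.11.15.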

Additional observations from a re-analysis of the deposited data

Results flagged for a closer look

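Of 30 groups looked at (10 members in 3 diets, all 17 libraries), 4 had a sample far from the others of its diet by Dixon's criterion, which flags about 1 in 20 groups by chance. Lamp5 was at 188 CPM in ET replicate 1, where the next ET library had 80.2 CPM, and at 148 CPM in AD replicate 6, where the next AD library had 75.5 CPM. Cort was at 7.94 CPM in AD replicate 6, beside a next value of 4.02 CPM. Calb2 was at 38.8 CPM in ET replicate 2, 1 of the libraries left out of the final analysis, beside 20.0 CPM in the next ET library.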

How the results depend on the processing

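By edgeR or DESeq2 0 of 10 members were called in the diet comparisons under every alternative but the replicate block: all 17 libraries, median-of-ratios scaling, no low-count filter, sums of technical replicates, sex or hemisphere as covariate, 1 fit of 3 diets, Gad1 and Gad2 alone as reference, and each library left out. For the sexes and the hemispheres the count was also 0 in every alternative run. Same-numbered libraries of ET and PF, ET and AD, and PF and AD had mean correlations of 0.31 (2 pairs), -0.06 (3 pairs) and 0.0020 (4 pairs). Libraries of unlike number had -0.036 (18 pairs), 0.017 (17 pairs) and -0.0018 (21 pairs) in the same order. With so few same-numbered pairs, these values cannot decide whether the numbers pair the animals. The fits with the replicate block for ET against PF and PF against AD also lack PF animal 11f5, which has no number. With the replicate block, PF against AD had 2 members called, Lamp5 (-0.58, adjusted p = 0.044) and Cort (-1.17, adjusted p = 0.017), where leaving out that animal alone gave -0.48 and -1.10 and called 0 members. Of 16027 genes tested, 551 were called higher and 167 lower in PF with the block, beside 612 and 82 without that animal alone. In ET against PF, Vip was 0.27 with the block and 0.05 without that animal alone, and 359 genes of all tested were called with the block, 549 without that animal alone and 664 with all 9 libraries. In ET against AD the block turned Cort to 0.37 and Cck to 0.11. The 2 genes called in ET against AD became 6 with all 17 libraries, 11 with DESeq2 and 5 in 1 fit of 3 diets. They became 5 without both ET replicate 1 and AD replicate 6, and 4 without ET replicate 1 or ET replicate 4. The 2 called with GABAergic scaling became 4 with all 17 libraries or without ET replicate 1. The 7 between the sexes became 0 with AD included by labelled sex, which sex-linked genes did not match in AD replicates 1 and 2. The sex covariate in ET against AD and PF against AD used the same labels. The 0 between the hemispheres became 1 without AD replicate 3. Other turns of direction in ET against PF were -0.00067 for Slc32a1, -0.068 for Cck and -0.11 for Sst with all 17 libraries, and -0.00074 and -0.0011 for Sst with median-of-ratios scaling and without a filter. Lamp5 was -0.19 in ET against AD without ET replicate 1 and AD replicate 6, an alternative added after seeing the data. Of the 45 pairs of members, 14 passed with the 14 libraries, 0 without these 2 and 17 with all 17 libraries, alternatives also added after seeing the data. The causes were not tested.

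Leaving out each library in turn, log2 differences in ET against PF ran from -0.30 to 0.14 for Vip, -0.077 to 0.89 for Lamp5, -0.032 to 0.42 for Npy, -0.091 to 0.39 for Pvalb, -0.22 to 0.16 for Cck, -0.33 to 0.23 for Sst and -0.29 to 0.076 for Gad2. In ET against AD they ran from -0.39 to 0.049 for Vip, -0.11 to 0.035 for Lhx6, -0.55 to 0.52 for Lamp5, -0.15 to 0.026 for Reln, -0.36 to 0.089 for Npy, -0.80 to 0.19 for Cort, -0.35 to 0.13 for Pvalb, -0.30 to 0.079 for Cck, -0.47 to 0.081 for Sst and -0.33 to 0.035 for Gad2. In PF against AD they ran from -0.15 to 0.0016 for Vip, -0.15 to 0.052 for Cck, -0.13 to 0.025 for Gad2 and -0.0053 to 0.17 for Calb2. Of the members given here in the ET comparisons, all but Reln were lowest without ET replicate 1. Depth was lowest for Cort, with 17.7 to 105 averaged counts.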
